A study of Homo sapiens with 6 samples.

Results

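Start sites were taken from anti-TY ChIP-seq of RPE1, a human retinal pigment epithelial cell line. At these sites the density in cells with tagged CFAP20, minus that in untagged WT cells, was higher upstream of the gene than into it. For each transcription start site (TSS), d was the density in TY-CFAP20 cells minus that in WT cells. A TSS was kept when its mean d within 500 bp was above 0.3, which held at 2169 of 3000 TSSs (72.3%). The skew was the mean d from 500 to 1500 bp downstream, minus the mean d from 500 to 1500 bp upstream, divided by the mean d within 500 bp. The 300 kept TSSs with the lowest skew, selected on these values, are described here, and the other 1869 kept TSSs stand beside them. Both groups were untreated and of the same iCas9 background with p53 and the puromycin resistance gene knocked out. WT cells (3 samples) had no tag for the antibody to bind and give its background. The other group (3 samples) was CFAP20-KO complemented with TY-CFAP20, and the labels name neither the promoter of the tagged copy nor whether the line is 1 clone. Since the deposited densities were averages of a group's samples, neither a replicate error nor a test between groups can be given. Shares and medians over TSSs below are descriptions, and TSSs are not replicates.

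CFAP20 is a conserved protein of cilia and centrioles, and the study asked about its role in transcription and replication in the nucleus. Transcription by RNA polymerase II starts within open stretches of DNA that in mammals are often CpG islands. Many such promoters initiate in both directions, giving short unstable RNAs upstream or, in head-to-head pairs, a second gene on the opposite strand. Many genes also have several alternative starts. ChIP-seq density around a listed TSS therefore reads these other starts as well as the listed one.

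The reference sequence (hg38) under the highest upstream d of some TSSs is shown because base composition differed between the sides of the start. Each is 200 bases long, written 5′ to 3′ on the strand of the gene, and centred on the highest d between 500 and 1500 bp upstream in a running mean of 110 bp. CpG dinucleotides are in capitals. For CNOT8 and TIAL1 the stretch at the same distance downstream follows for comparison.
CNOT8, upstream, chr5:154857452-154857651, plus strand: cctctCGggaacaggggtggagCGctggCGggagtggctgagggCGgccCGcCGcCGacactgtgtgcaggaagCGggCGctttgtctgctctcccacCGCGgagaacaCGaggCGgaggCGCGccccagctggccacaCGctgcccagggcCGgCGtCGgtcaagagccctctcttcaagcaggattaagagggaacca
CNOT8, downstream, chr5:154858852-154859051, plus strand: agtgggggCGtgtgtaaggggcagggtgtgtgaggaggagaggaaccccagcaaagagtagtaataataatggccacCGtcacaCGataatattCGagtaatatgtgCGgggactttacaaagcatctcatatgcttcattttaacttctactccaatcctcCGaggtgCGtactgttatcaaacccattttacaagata
TIAL1, upstream, chr10:119597182-119597381, minus strand: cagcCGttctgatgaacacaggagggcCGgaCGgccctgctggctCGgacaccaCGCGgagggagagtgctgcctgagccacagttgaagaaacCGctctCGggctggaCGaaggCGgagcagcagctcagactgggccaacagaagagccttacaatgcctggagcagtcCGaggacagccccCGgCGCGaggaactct
TIAL1, downstream, chr10:119595642-119595841, minus strand: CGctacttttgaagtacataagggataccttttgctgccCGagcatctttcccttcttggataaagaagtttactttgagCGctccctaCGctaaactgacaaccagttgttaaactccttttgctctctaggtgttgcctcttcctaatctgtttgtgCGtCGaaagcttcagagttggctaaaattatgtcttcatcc
ENO3, upstream, chr17:4949685-4949884, plus strand: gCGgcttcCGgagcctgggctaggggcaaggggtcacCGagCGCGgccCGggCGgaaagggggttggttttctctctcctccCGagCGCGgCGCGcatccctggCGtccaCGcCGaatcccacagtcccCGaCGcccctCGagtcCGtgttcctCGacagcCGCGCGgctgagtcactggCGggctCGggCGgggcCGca
EGR1, upstream, chr5:138464110-138464309, plus strand: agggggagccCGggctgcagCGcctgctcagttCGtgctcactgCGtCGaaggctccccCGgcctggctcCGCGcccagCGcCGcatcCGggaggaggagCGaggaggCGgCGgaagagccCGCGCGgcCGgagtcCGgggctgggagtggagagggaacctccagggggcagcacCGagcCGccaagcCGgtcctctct
STK40, upstream, chr1:36386558-36386757, minus strand: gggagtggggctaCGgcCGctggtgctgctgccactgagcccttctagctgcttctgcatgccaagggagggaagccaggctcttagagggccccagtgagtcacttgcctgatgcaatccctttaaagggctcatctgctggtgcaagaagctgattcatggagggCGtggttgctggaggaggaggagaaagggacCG
The upstream stretches of CNOT8 and TIAL1 held 19 and 14 CpG dinucleotides and those downstream 7 and 6. ENO3 and EGR1 held 27 and 22 upstream. STK40 held 4 upstream and 10 at the same distance downstream, so a dense CpG stretch was not found under every upstream summit. The stretches shown are a choice. At the lowest skews, in the order MTFP1, RP11-540O11.1, HMGN4, EGR1 and VMA21, the upstream stretches held 13, 4, 8, 22 and 3.

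At the 300 TSSs the TY-CFAP20 density kept its summit over the start and added a shoulder upstream. Mean d was 0.525 from 1000 to 500 bp upstream and 0.394 from 1500 to 1000 bp upstream, against 0.196 and 0.130 at the other kept TSSs. Beyond 1500 bp upstream it fell back, to 0.161 from 2000 to 1500 bp against 0.128. Downstream it dropped sharply, to 0.0464 from 500 to 1000 bp and -0.0333 from 1000 to 1500 bp, where the other kept TSSs had 0.466 and 0.285. Beyond 1500 bp downstream it rose again, to 0.119 from 1500 to 2000 bp and 0.147 from 2000 to 2500 bp, against 0.187 and 0.163. The mean d was highest at -30 bp (0.906), close to the -10 bp (1.04) of the other kept TSSs. Mean d was more than midway from its flank level to its highest value over -330 to 310 bp, against -330 to 550 bp. The windows within 1500 bp of the start are those the choice used, so the contrast between the groups there is a description of the choice.

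**Figure D1:**
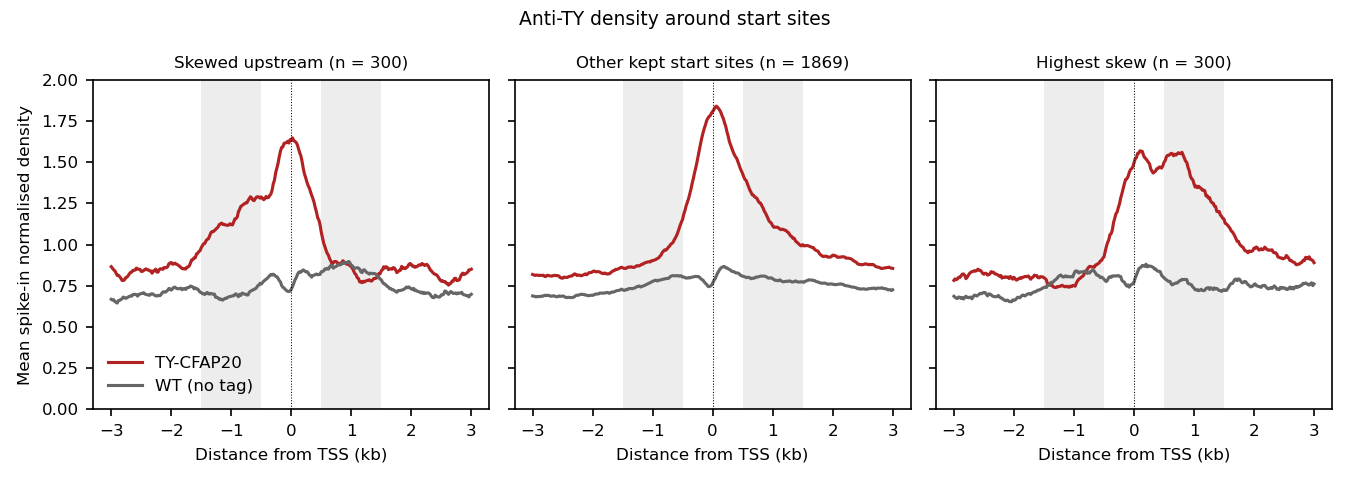
Mean spike-in normalised anti-TY density (y axis) by distance from the TSS in kb (x axis) in TY-CFAP20 (red) and untagged WT (grey) for the 300 TSSs skewed upstream, the other 1869 kept TSSs, and the 300 with the highest skew, which are part of those 1869. Grey bands mark the windows from 500 to 1500 bp that the skew reads: the left panel has a shoulder in the upstream band, and in its downstream band the curves meet.

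Single TSSs differed in where d was highest. Within 1500 bp of the start, the highest d lay upstream of the TSS at 201 of the 300 (67%) and at 771 of the others (41.3%). The share over all 3000 was 44.2%. It lay more than 500 bp upstream at 79 of the 300 (26.3%), 88 of the others (4.71%) and 12.6% of all 3000. At 78 of the 300 (26%) the mean d upstream exceeded that over the start itself, as it did at 5.07% of the kept and 15.5% of all 3000 TSSs. The upstream window was above 0.3 at 208 of the 300, and this limit was passed by 27.8% of all 3000 TSSs. In the downstream window d was below 0 at 140 of the 300, against 19.7% of all 3000.

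Both groups' densities entered the skew. The median TY-CFAP20 density was 1.112 upstream and 0.845 downstream at the 300 TSSs, and 0.903 and 1.12 at the others. The median WT density ran the other way, at 0.6996 upstream and 0.847 downstream, against 0.750 and 0.773. The TY-CFAP20 density was higher upstream than downstream at 261 of the 300 (87.0%, against 33.7% of all 3000). The WT density was higher downstream at 225 (75%, against 55.5% of all 3000). At 39 of the 300 (13%, against 39.97% of all 3000) WT was higher downstream and TY-CFAP20 was not higher upstream. ROBO3, an axon guidance receptor gene, is such a case, with WT at 1.01 downstream and 0.416 upstream and TY-CFAP20 at 1.13 and 0.999. At VMA21, which encodes an assembly factor of the proton-pumping V-ATPase, most of the difference lay in WT. Its WT density was 1.20 downstream and 0.641 upstream, while TY-CFAP20 stood at 0.528 and 0.573.

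The spread of these differences away from start sites was large. Taken from 3000 to 4000 bp instead, d downstream minus d upstream had 25th and 75th percentiles of -0.195 and 0.211 over all kept TSSs. Its median in the 300 was -0.00383. In the windows of the rule, the 300 had a median of -0.408. A value at or below that occurred in the far windows at 180 of the 2169 kept TSSs (8.30%), and in the windows of the rule at 162 (7.47%). A downstream minus upstream difference of this size is thus no rarer far from the start than near it, and single TSSs among the 300 cannot be told from that spread. The mean density within 500 bp of the 300 starts rested on 8.21 to 34.1 fragments over a position in WT. In TY-CFAP20 it rested on 14.2 to 33.5.

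**Figure D2:**
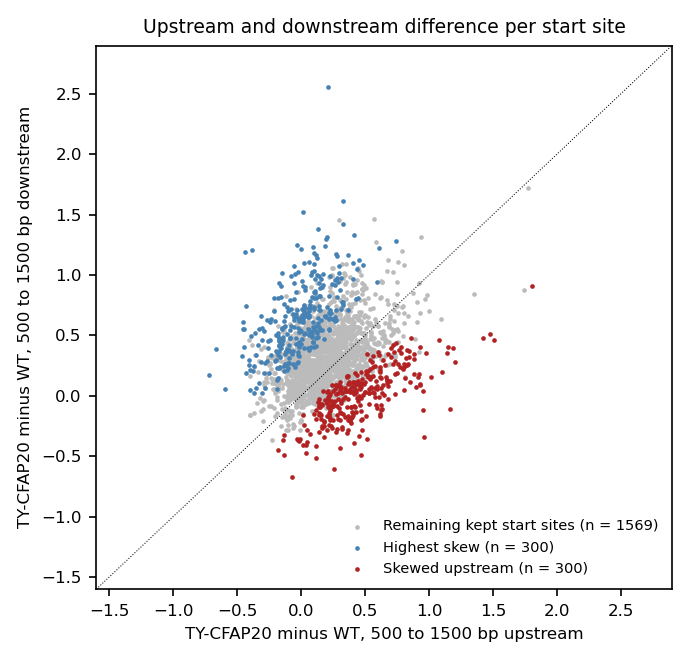
Mean TY-CFAP20 minus WT from 500 to 1500 bp upstream (x axis) and downstream (y axis), 1 point per kept TSS, both in units of spike-in normalised density. The 300 TSSs skewed upstream (red) lie below the dotted line of equal values and the 300 with the highest skew (blue) above it, and the remaining 1569 (grey) border both with no gap.

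The 10 lowest skews ran from -2.50 to -1.57. MTFP1, a gene of mitochondrial fission on chromosome 22 (TSS at 30425530, hg38), had the lowest. Its TY-CFAP20 density was 2.58 upstream, 1.45 over the start and 1.59 downstream, with WT at 0.773, 1.09 and 0.680. The highest d lay 1.48 kb upstream, in a UTR of the neighbouring gene SEC14L2, and no other start is annotated within 1500 bp upstream of MTFP1. The non-coding gene RP11-540O11.1 (chromosome 15, 40906811) had a narrow summit of d 590 bp upstream, with 3.76 in TY-CFAP20 and 0.743 in WT there. HMGN4, which encodes a nucleosome-binding protein, reached 2.36 in TY-CFAP20 and 0.934 in WT at 710 bp upstream.

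EGR1, an immediate-early transcription factor (chromosome 5, 138465490), had a TY-CFAP20 density of 2.05 upstream, 1.30 over the start and 0.839 downstream. The WT densities were 1.10, 0.817 and 0.798. The highest d lay 1.28 kb upstream, in an exon of an lncRNA on the opposite strand whose start is 812 bp upstream. EGR1 also had the highest BrU-seq value (154) and the highest DRIP value (18840) of the 300. ENO3, the muscle enolase, had d of 0.825 upstream, 0.340 over the start and 0.255 downstream, with its summit 1.31 kb upstream within an intron of ENO3 itself. NFRKB, a subunit of the INO80 chromatin remodeller, had 0.622, 0.352 and 0.0675. FAM213A, a peroxiredoxin-like gene, had 1.10, 0.568 and 0.195.

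The 6 largest upstream differences were at MTFP1 (1.81), TIAL1 (1.51), STK40 (1.48), RP4-633O19__A.1 (1.42), CNOT8 (1.20) and MSL2 (1.19). TIAL1, which encodes an RNA-binding protein, had as much d over the start (1.48) as upstream, and 0.459 downstream. At STK40, a kinase-like gene, d was 1.10 over the start and 0.511 downstream. These TSSs therefore differ from MTFP1, where d over the start was 0.360. The largest d over the start was at CCDC97 (1.51), ENAH (1.49), TIAL1, HINFP (1.44), CNOT8 (1.34) and TRIM59 (1.30). ENAH, an actin regulator, had 0.957 upstream and -0.338 downstream. HINFP, a transcription factor of histone H4 genes, had 0.649 upstream and 0.0106 downstream.

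The limit of 300 fell in a continuous range. KBTBD8 (-0.423) and FLYWCH2 (-0.422) were just inside it, and ZNF213 (-0.421) and ARVCF (-0.421) just outside.

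Other annotated starts, which the choice did not use, were counted around each TSS in GENCODE release 44. A start of another gene on the opposite strand lay within 1500 bp upstream at 74 of the 300 TSSs (24.7%). The share was 18.2% at the other kept TSSs, 11% at the 300 with the highest skew and 16.0% of all 3000. Of the 74 nearest partners, 41 were protein-coding genes and 32 lncRNA genes, at a median distance of 172 bp. Only 18 of the 74 began 500 to 1500 bp upstream, in the window that the skew reads. Downstream an opposite-strand start lay at 6.67% of the 300, near the 7.60% of all 3000, and at 8.61% of the other kept TSSs and 10.7% of the highest skews. With protein-coding starts only, the downstream shares were 4.67% of the 300, 4.47% of all kept TSSs and 4.27% of all 3000. A further start on the same strand, from 200 to 1500 bp upstream, was annotated at 73 of the 300 (24.3%), against 14.8%, 11.3% and 14.6%. In 72 of these 73 it belonged to the gene itself, as in 343 of 350 among all kept TSSs and 421 of 438 among all 3000. From 200 to 1500 bp downstream, same-strand starts were annotated at 35.3% of the 300, 46.1% of the other kept TSSs, 51.3% of the highest skews and 40.4% of all 3000. The listed TSSs are at least 2014 bp apart, so head-to-head pairs of 2 listed genes within 1500 bp are not in these tables.

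**Figure D3:**
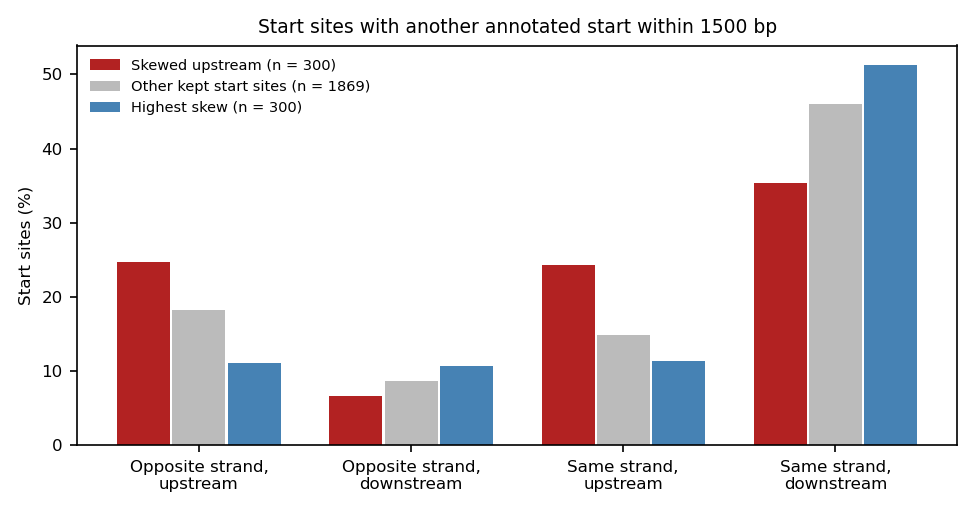
Share of TSSs in percent (y axis) with another annotated start within 1500 bp, by strand and side (x axis), in the 300 TSSs skewed upstream (red), the other 1869 kept TSSs (grey) and the 300 with the highest skew (blue). Upstream starts were listed for 24.7% (opposite strand) and 24.3% (same strand) of the red group, the highest bars of those sets, and downstream starts for the fewest.

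Read the other way, 17.9% of the 414 kept TSSs with an opposite-strand start upstream belonged to the 300, as did 19.6% of the 276 with a same-strand start only. Of the 1479 with neither it was 11.6%, where 13.8% of all kept TSSs belonged to the 300. The other kept TSSs also had more d upstream where a start was annotated there. Their median was 0.196 with an opposite-strand start, 0.210 with a same-strand start only and 0.133 with neither. At the 300 these medians were 0.453, 0.502 and 0.394. In 172 of the 300 (57.3%) neither kind of start was annotated within 1500 bp upstream, against 68.2% of all kept TSSs and 72.2% of all 3000.

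Where a start of either strand was annotated 500 to 1500 bp upstream, the position of the upstream signal could be set against it. The highest upstream d lay within 150 bp of such a start at 35 of 66 TSSs of the 300 (53.0%), 97 of 221 other kept TSSs (43.9%) and 5 of 20 of the highest skews (25%). It was read only from 500 to 1500 bp upstream, on the d that the choice used. Position alone gives some matches in so short a window, and that level was not calculated. CNOT8, a subunit of a deadenylase that shortens mRNA tails, had an annotated start of its own 699 bp upstream, and its highest d lay 700 bp upstream, in the first CpG-rich sequence above. At NFRKB the start was 1148 bp and the highest d 1.12 kb upstream.

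Among the members with an opposite-strand start, RP4-633O19__A.1, an lncRNA, faces MYH9, the gene of a non-muscle myosin heavy chain whose start is 616 bp upstream. Its TY-CFAP20 density was 2.29 upstream, 1.51 over the start and 0.967 downstream, with WT at 0.868, 0.801 and 0.492. The highest d lay 710 bp upstream, in a UTR of MYH9. PAICS, an enzyme of purine synthesis, forms a textbook head-to-head pair with PPAT, another enzyme of that pathway, whose start is 537 bp upstream. It had d of 0.762 upstream, 0.668 over the start and 0.378 downstream. NAIF1 faces the mitochondrial carrier gene SLC25A25 at 879 bp and had 0.615, 0.468 and -0.149. TMEM126B faces DLG2 at 250 bp (0.477, 0.539 and -0.281), and CCHCR1 faces TCF19 at 92 bp (0.369, 0.394 and -0.283). Across the 74 pairs the distance to the partner and the position of the highest d within 1500 bp upstream had a Spearman's rho of 0.263. Both quantities are read on the same DNA.

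No start of any gene was annotated from 200 to 5000 bp upstream at 160 of the 300 (53.3%), against 64.7% of the other kept TSSs and 64.9% of all 3000. RP11-540O11.1, HMGN4, PANX2, RGS2 and ROBO3 had the lowest skews among them. PANX2, a pannexin channel gene, had d of 0.419 upstream, 0.325 over the start and -0.0889 downstream. RGS2, a regulator of G-protein signalling, had 0.410, 0.521 and -0.393. ROBO3 had 0.584, 0.301 and 0.126. At the highest upstream d, 145 of the 300 lay between genes (48.3%, against 61.1% of the other kept TSSs). In 81 that point was within a gene on the opposite strand (27.0%, against 21.1%) and in 64 within the gene itself through an upstream isoform (21.3%, against 15.1%). In 10 it was within another gene of the same strand (3.33%, against 2.68%).

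Base composition moved with the skew. In the window from 500 to 1500 bp upstream the median GC content was 48.5% at the 300 TSSs, 46.3% at the other kept TSSs and 45.5% at the highest skews. Downstream it was 47.2%, 50.0% and 55.7%. GC content was higher upstream than downstream at 177 of the 300 (59.0%), 32.0% of the other kept TSSs, 16.7% of the highest skews and 35.7% of all 3000. The CpG ratio (observed over expected) had medians of 0.403 upstream and 0.397 downstream at the 300, and 0.373 and 0.502 at the others. It was higher upstream than downstream at 147 of the 300 (49.0%), 36.7% of all kept TSSs and 38.1% of all 3000. Over all 2169 kept TSSs, GC content downstream minus upstream had a Spearman's rho of 0.356 with d downstream minus upstream, given without p because neighbouring bases share library and DNA. Against the TY-CFAP20 density alone it was 0.366 and against WT alone 0.000354. The part of base composition in the skew was not tested.

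**Figure D4:**
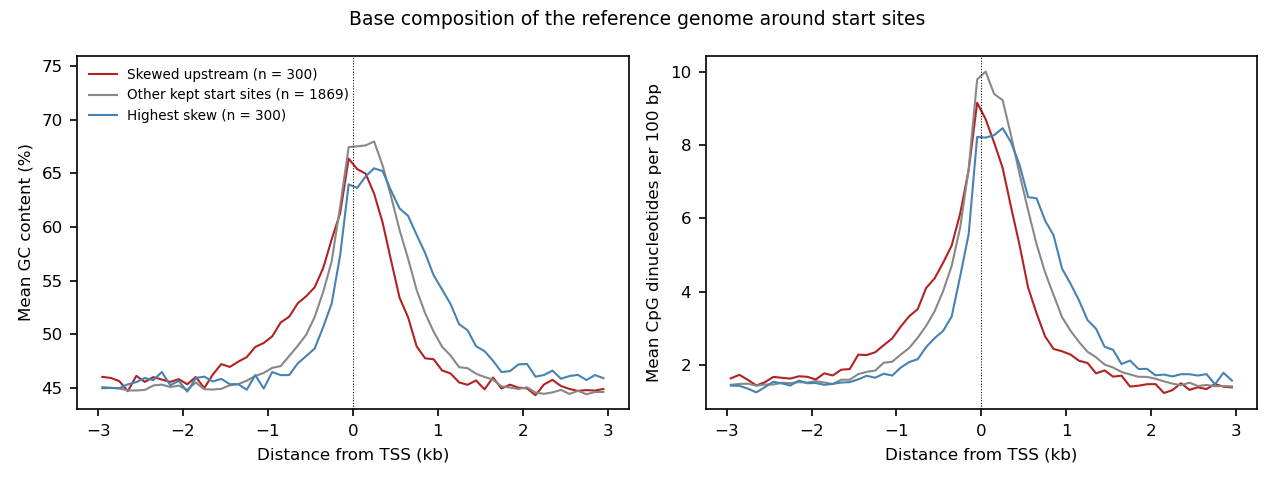
Mean GC content in percent (left) and mean number of CpG dinucleotides per 100 bp (right) of the hg38 reference in steps of 100 bp, by distance from the TSS in kb, for the 300 TSSs skewed upstream (red), the other 1869 kept TSSs (grey) and the 300 with the highest skew (blue). From 1000 to 900 bp upstream the red group had a mean GC content of 49.8% and 3.04 CpG dinucleotides, and from 900 to 1000 bp downstream 47.7% and 2.37.

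Short promoter motifs were searched on both strands. GGGCGG, the core of the GC box bound by SP1, was found from 500 to 1500 bp upstream at 44.7% of the 300, 36.9% of the other kept TSSs, 32.7% of the highest skews and 34.8% of all 3000. Downstream the shares were 37.0%, 52.9%, 65.7% and 46.7%. TATAAA, the TATA box, was found upstream at 35.7% of the 300 and 47.1% of the other kept TSSs, and downstream at 46.0% and 38.2%. These letters differ in GC content, as the windows do. CCAAT, bound by NF-Y, was found upstream at 69.0% and 70.7%, and GGAAGTG, an ETS motif, at 18.0% and 18.9%. The palindromic NRF1 motif was found in the upstream window of 1 of the 300 (0.333%), 0.161% of the other kept TSSs and 0.133% of all 3000. From 250 bp upstream to 50 bp downstream, GGGCGG was found at 63.0% of the 300 and 70.3% of the others, and CCAAT at 38.3% and 35.5%.

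Transcription and R-loops came from other assays of the study. BrU-seq, which labels nascent RNA, had a median of 2.53 in WT gene bodies at the 300, 2.92 at the other kept TSSs and 2.55 over all 3000. The ratio of the first to the second was 0.865, and it was above 1 under 3 other settings (1.04, 1.08 and 1.01). Of the 300, 58 (19.3%) were above the 75th percentile of BrU-seq over all 3000 TSSs, against 29.3% of the other kept TSSs. The highest values after EGR1 were at ADAMTS1 (99.8), a matrix metalloprotease gene, and HMGN2 (93.7), a nucleosome-binding protein gene. ADAMTS1 had d of 1.15 upstream, 0.855 over the start and 0.402 downstream. DRIP, which measures RNA-DNA hybrids, had medians of 543 and 555, and 528 over all 3000, with wide overlap (25th and 75th percentiles of 347 and 993 at the 300). RP4-633O19__A.1 (8813) and MTFP1 (6203) had the highest DRIP values after EGR1. The ratio of the DRIP medians, 0.978, was also above 1 under 6 other settings. Median gene length was 17.8 kb against 22.2 kb, and 18.3 kb over all 3000. Of the 300 genes, 249 were protein-coding (83.0%, against 92.8% of the other kept TSSs and 84.2% of all 3000). Another 45 were lncRNA genes (15.0%, against 6.37% and 13.6%). In gene length, biotype and median BrU-seq the 300 thus lay near the level of all 3000. The skew divides by the mean d over the start, so a small value there gives a larger skew of either sign. Its median was 0.584 at the 300, 0.502 at the highest skews, 0.718 at all kept TSSs and 0.571 over all 3000. The part of this in gene length, biotype and BrU-seq was not tested. An OK-seq origin centre lay within 10 kb of 14 of the 300 (4.67%), 7.87% of the other kept TSSs and 6.57% of all 3000. By their label, the deposited origin centres are a selection with the 5 kb upstream of the TSS empty. The part of this selection in these shares was not tested.

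Gene lists were described by the members they hold, with 13.8% of kept TSSs as the level over all genes. Of 16 kept genes of oxidative phosphorylation, 4 belonged to the 300 and another 4 to the 300 with the highest skew, and the list had a median skew of 0.282. These were COX4I1, ATP5D, UQCRC1 and ATP5G1, the last named only to complete the count. COX4I1, a cytochrome c oxidase subunit, faces EMC8 at 85 bp and had d of 0.458 upstream, 0.452 over the start and -0.0776 downstream. The tRNA synthetase gene NARS also belonged to the 300, with d of 0.261 upstream, 0.649 over the start and -0.609 downstream. At NARS the low downstream value came with a WT density of 1.57 there. Of 19 kept cell cycle genes 2 did, the mitotic kinesin KIF23 (0.0364, 0.398 and -0.404) and the kinetochore gene NDC80 (0.229, 0.614 and -0.0864), whose partner METTL4 starts 2 bp upstream. EGR1 was the single one of 11 immediate-early genes. None of the 14 mitochondrial ribosomal, 11 cytosolic ribosomal and 5 DNA repair genes that were kept belonged to the 300.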

How the data were processed

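The assay was anti-TY ChIP-seq of 6 samples, 3 per group. For each group the authors deposited read densities averaged over replicates and normalised to a Drosophila spike-in, a signal given for 3000 TSSs at 1001 positions 10 bp apart. The calculation of the spike-in factor and the role of each tool are not stated. The submitters' processing notes list R 4.0.5, STAR 2.7.7a, HOMER 4.8.2, SAMtools 1.11, BWA 0.7.17 and Trim Galore 0.6.5, and the labels hg38 and BDGP6. The deposited tables also hold BrU-seq and DRIP signal in WT, and a ratio of CFAP20 to WT of an unnamed assay. A deposited table of OK-seq origin centres gives a signed distance to the TSS, entered as a score, as made by the authors. Library totals are not known from averages. Signal values were sums of multiples of 3 steps, which were 0.0233, 0.0417 and 0.0967 for WT. For TY-CFAP20 they were 0.0425, 0.0667 and 0.100. The fragment range is density over the largest and over the smallest step.

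Members, lists and windows were chosen with earlier results of these data known. Named genes were those with the lowest skew, the largest differences, the highest BrU-seq and DRIP values, the limit of the list, the lowest skews by kind of upstream start, and listed genes. Coordinates are hg38, 1-based. Transcript starts came from GENCODE release 44, sequence from the hg38 reference, and 2965 of the 3000 genes matched by Ensembl identifier. Gene ends, annotation at the upstream summit and the position of the upstream signal relative to annotated starts were added after the data were seen. The calculation was checked on simulated densities. No column of per-sample values lacked a group (0 such columns). 1 listed gene is not reported here. Tools were matplotlib 3.10.9, pysam 0.24.0, scipy 1.17.1, pandas 2.3.3, numpy 2.4.6 and Python 3.11.15.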

Additional observations from a re-analysis of the deposited data

How the results depend on the processing

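No paired analysis was possible because the values are group averages, which also kept single replicates from being left out. Depth per library is unknown. Dividing each TSS by its own flank ratio and using protein-coding genes alone were added after seeing the data. The share of an opposite-strand start upstream was higher in the members than in the other kept TSSs in 15 of 16 settings. The exception counted listed TSSs only, where both were 0% because listed TSSs are at least 2014 bp apart. With protein-coding starts the shares were 13.7% and 8.51%, and within 3000 bp the others had 21.7%. Which TSSs are members depended on the windows: from 1000 to 2000 bp, 123 of the 300 (41.0%) remained, and with TY-CFAP20 minus its own flank in place of WT 150 (50.0%). With windows from 1000 to 2000 bp, 52.7% had the highest difference upstream, 15.3% a same-strand start upstream, and the median upstream difference was 0.278. With 150 members 76% had the highest difference upstream, and the median was 0.467, or 0.386 with 600. Flank scaling gave 0.313, and scaling each TSS 0.319, with 60.7% having the highest difference upstream. Median BrU-seq over that of the others was 0.865 and passed 1 with 150 members (1.04), TY-CFAP20 minus its own flank (1.08) and TSSs within 100 bp of an annotated start (1.01). The DRIP ratio of 0.978 became 1.04 with a limit of 0.5, 1.00 with flank scaling, 1.17 with TY-CFAP20 minus its own flank, 1.02 near annotated starts, 1.03 without chromosome 10 and 1.02 with each TSS scaled. The cause was not tested.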

Other observations

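As a share of kept TSSs, members were unevenly spread over chromosomes. They were 11 of 38 on chromosome 15 (28.9%) and 9 of 39 on X (23.1%). On chromosome 2 they were 10 of 165 (6.06%) and on chromosome 13 2 of 40 (5%). However, only 38 of 107 TSSs on chromosome 15 and 39 of 92 on X were kept, against 72.3% of all 3000. Among all TSSs, kept or not, members were 11 of 107 on chromosome 15 and 9 of 92 on X. This compares with 300 of 3000 in the whole series, 10 of 212 on chromosome 2 and 2 of 58 on chromosome 13.

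A listed gene on the opposite strand, itself in the density tables, began within 5 kb upstream of 5 members. PFKFB2, an enzyme that sets the level of a glycolysis activator, faces the deubiquitinase gene YOD1 at 2182 bp. YOD1 had a difference of 0.588 over its own start and a skew of -0.311, which also points towards the DNA between both starts. PML, the scaffold of PML nuclear bodies, faces STOML1 at 2368 bp, which had 0.314 and a skew of 0.359, pointing away from it.

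A ratio of CFAP20 to WT of an unnamed assay, from the authors' deposited table, had a median of 1.16 at the members and 1.20 at the other kept TSSs, with 25th and 75th percentiles of 0.868 and 1.43 at the members.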
